A study of Mus musculus with 8 samples.

Results

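Acetylation of histone H3 at lysine 27 (H3K27ac) was examined at the loci of 4 transcription factor genes of the intestinal epithelium, Cdx2, Hnf4a, Elf3 and Klf4. H3K27ac marks active promoters and enhancers, and was measured by chromatin immunoprecipitation with sequencing (ChIP-seq) in crypts of mouse small intestine, the epithelial pits in which the stem cells sit. Each locus is a window of the mm9 mouse genome defined by its position: chr5:148090000-148140000 for Cdx2, chr2:163310000-163425000 for Hnf4a, chr1:137125000-137180000 for Elf3 and chr4:55515000-55570000 for Klf4. Every peak that touched a window by 1 bp or more was taken whole. The 2 fed lists, called fed 1 and fed 4, gave 31 of their 27640 and 33 of their 15504 peaks. Fasted 2 and fasted 5 gave 27 of 37974 and 22 of 35917. Merged wherever they overlapped, these peaks formed 21 of the 43091 regions of the series. The windows rest on the stated positions alone: no mm9 gene annotation was used, so peaks were placed within windows and not on exons, introns or start sites. A window can also hold parts of neighbouring genes, which in RefSeq (GRCm38.p6) are Pdx1 and Urad beside Cdx2, R3hdml and Ttpal beside Hnf4a, Gpr37l1 and Rnpep beside Elf3, and Rad23b and Actl7b beside Klf4.

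The fed group had free access to chow, and the fasted group had water but no food for 24 h. Mice of both sexes, 6 to 12 weeks old, were Lgr5EGFP-IRES-CreERT2/+ (a stem cell reporter and Cre allele) or C57BL/6J; the labels do not say which strain gave which library. Each group had 2 H3K27ac libraries, named here by their label numbers, and each library came from the pooled crypts of 4 animals. Trichostatin A, an inhibitor of the enzymes that remove histone acetyl groups, was present at 100 nM while crypts of both groups were isolated, and so was in the fed as well as the fasted samples. Whole crypts hold stem, progenitor, Paneth and other cells, and a peak list cannot tell more cells with a mark from more mark per cell. The crypt label was not checked against marker genes, since no mm9 gene positions were used.

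Cdx2 is a homeobox protein that sets and keeps intestinal identity. Hnf4a is a nuclear receptor that binds promoters and enhancers of enterocyte genes, many of them for lipid handling. Elf3 is an ETS-family factor of epithelia that takes part in enterocyte and goblet cell maturation, and Klf4 is a zinc finger factor linked to goblet cells and to cells that have left the cell cycle. Genes that keep a cell type's identity often lie in long stretches of H3K27ac, made of many neighbouring enhancers.

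The sequences just before the start sites of the 4 genes are shown to give the genes' own regulatory sequence; whether a window or a peak holds them was not tested, as the sequences come from RefSeq in build GRCm38.p6 and the peaks are in mm9. All 4 genes matched by symbol. Each line gives the 250 bases before an annotated start, 5′ to 3′ on the gene's own strand. Cdx2, Elf3 and Klf4 lie on the minus strand of chromosomes 5, 1 and 4, and Hnf4a on the plus strand of chromosome 2. Hnf4a has 2 starts in the table, 40298 bp apart. Capitals mark matches, on either strand, to any of 6 motifs: GTTAAT (a half-site of the factor HNF1), CCNCNCCC (bound by KLF-family factors), GGGCGG (GC box), TATAAA (core box), TTTATNG (CDX-type) and GGAAGT (ETS-type). The GC box and the KLF motif can overlap each other.
Cdx2: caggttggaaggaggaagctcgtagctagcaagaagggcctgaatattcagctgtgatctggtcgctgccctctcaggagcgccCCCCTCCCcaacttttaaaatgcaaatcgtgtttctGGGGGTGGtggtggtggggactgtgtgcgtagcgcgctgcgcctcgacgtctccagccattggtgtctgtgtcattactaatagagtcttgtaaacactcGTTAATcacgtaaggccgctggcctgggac
Hnf4a upstream promoter: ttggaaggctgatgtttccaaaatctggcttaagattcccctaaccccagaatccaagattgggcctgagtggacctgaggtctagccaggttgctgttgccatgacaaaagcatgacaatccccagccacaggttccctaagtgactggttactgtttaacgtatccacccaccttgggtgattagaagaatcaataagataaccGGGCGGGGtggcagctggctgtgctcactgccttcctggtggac
Hnf4a downstream promoter: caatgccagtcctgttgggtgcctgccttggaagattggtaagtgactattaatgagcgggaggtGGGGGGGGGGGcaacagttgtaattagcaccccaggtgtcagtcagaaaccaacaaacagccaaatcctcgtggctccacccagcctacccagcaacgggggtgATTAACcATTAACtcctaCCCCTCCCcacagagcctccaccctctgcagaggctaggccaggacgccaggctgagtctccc
Elf3: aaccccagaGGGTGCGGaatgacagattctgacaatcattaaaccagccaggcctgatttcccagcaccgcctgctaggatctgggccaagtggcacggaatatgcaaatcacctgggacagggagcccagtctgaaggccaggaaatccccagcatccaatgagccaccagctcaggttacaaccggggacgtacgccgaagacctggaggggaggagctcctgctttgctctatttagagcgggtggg
Klf4: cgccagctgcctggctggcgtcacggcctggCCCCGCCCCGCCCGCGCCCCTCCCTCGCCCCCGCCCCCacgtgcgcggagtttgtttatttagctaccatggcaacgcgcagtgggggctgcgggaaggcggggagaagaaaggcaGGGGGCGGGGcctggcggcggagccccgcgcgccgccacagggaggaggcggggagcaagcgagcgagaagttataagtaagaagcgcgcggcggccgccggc
The promoter of Klf4 was the richest in G and C, at 74.0%, with 32 CpG dinucleotides, against medians of 52.4% and 6 over the 32851 promoters of the table. The other promoters had 51.2 to 57.6% G and C and 3 to 13 CpG. KLF-type matches stood in all 5 sequences and in 45.9% of all promoters; Klf4 itself had 9 of them and 4 GC boxes, which occur in 32.7% of promoters. HNF1 half-sites stood at 81 and 74 bases before the downstream Hnf4a start and at 30 bases before the Cdx2 start, and in 6.43% of all promoters. The TATAAA, CDX and ETS motifs had no match in these 5 windows, against 12.4%, 9.81% and 19.7% of promoters. A match describes letters and is no evidence of binding.

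The lists differed in length, and this bears on every comparison of feeding states. Peaks of fed 1 and fed 4 covered 48.8 and 21.9 Mb and those of fasted 2 and fasted 5 covered 99.2 and 109.1 Mb, so that the fasted mean was 2.95 times the fed mean. Sequencing depth is unknown, and list length and feeding state cannot be told apart in 2 against 2 libraries. No difference between the groups can go below p = 0.333 in the exact permutation test (two-sided) used throughout. Each peak has a score given by the authors, used here only as a percentile, the share of its own list that it equals or exceeds. Scores are therefore not compared between lists. In fasted 5, 1282 peaks share a score of 3100; they stand at percentile 99.6, and at 96.0 if the lower edge of the tie is taken.

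**Figure D1:**
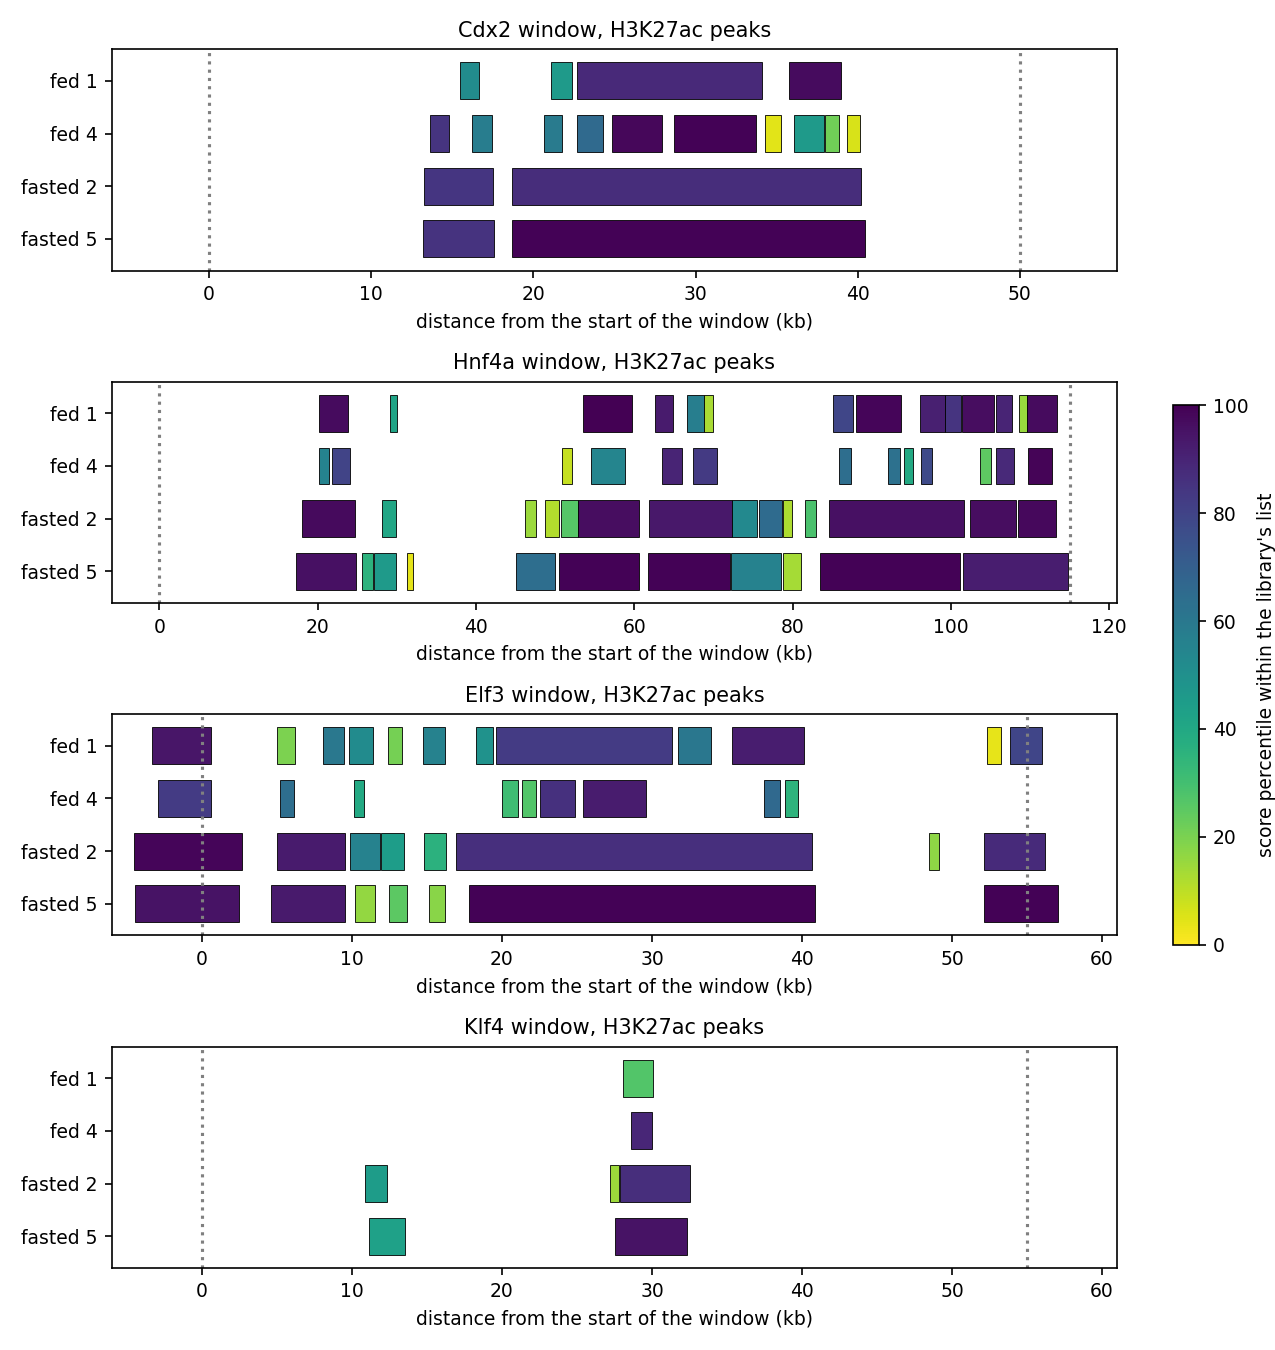
Every H3K27ac peak at the 4 loci, 1 row per library, with the distance from the window's start in kb on the x axis, dotted lines at the window edges and colour for the peak's score percentile within its own list. At Cdx2 and Elf3 the fasted libraries show a single peak of 21470 to 23703 bp where the fed libraries show 3 to 8 narrower peaks, and at Klf4 each fed library has 1 peak.

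At Cdx2, acetylation filled a compact block in all 4 libraries. Peaks covered 17017 and 17811 bp in fed 1 and fed 4, and 25758 and 26110 bp in fasted 2 and fasted 5. Each fasted library exceeded each fed library, and replicates within a state lay close together, although the whole list of fed 1 covers far more than that of fed 4. The means were 17414 ± 561.4 bp fed and 25934 ± 248.9 bp fasted (SD, n = 2), a ratio of 1.49 (exact permutation p = 0.333).

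The same block was cut into unlike numbers of peaks. Fed 1 and fed 4 had 4 and 10 peaks at Cdx2, and each fasted library had 2, so both fed lists held more. Over the series, 2.38% of 50000 bp bins holding any peak had more peaks in both fed than in both fasted libraries, and 5.74% of bins with peaks of all 4 libraries did. The fasted libraries had a peak of 4288 and 4345 bp, then, after a gap, a peak of 21470 bp in fasted 2 and 21765 bp in fasted 5. Within the long fasted peak, chr5:148108673-148130437 as merged over libraries, fed 1 had 3 peaks covering 15869 bp and fed 4 had 8 covering 15357 bp. Every fed base at Cdx2 lay within both fasted lists. When peaks less than 1000 bp apart were joined, a setting added once the data had been seen, the difference in peak number shrank from -5.0 to -1.0.

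The best-scoring Cdx2 peak lay at different places in the fed lists. In fed 1 it was the peak at chr5:148125779-148128951, at percentile 97.2, beside the wide peak of 11445 bp at percentile 88.6. In fed 4 it was chr5:148118696-148123711, at percentile 99.4 and 89th from the top of its list, and the neighbouring peak of 3062 bp stood at 98.3. The remaining fed 4 peaks of the block ran from percentile 4.31 to 84.9. In fasted 2 the long peak stood at percentile 87.5 and ranked 4756th, and in fasted 5 it was among the tied peaks at 99.6. Fasted 2 thus had no Cdx2 peak at or above the 90th percentile, while fed 1 and fasted 5 had 1 each and fed 4 had 2.

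Hnf4a, with a window of 115 kb against 50 to 55 kb, carried the most acetylated bases of the 4 loci in every library. Peaks covered 40169 and 27048 bp in fed 1 and fed 4, and 68112 and 77550 bp in fasted 2 and fasted 5. These are 34.9%, 23.5%, 59.2% and 67.4% of the window. By that share Elf3 was higher in fed 1 and fasted 2, at 53.2% and 71.9%, and Cdx2 was higher in fed 4, at 35.6%. The fasted mean of 72831 ± 6673.7 bp was 2.17 times the fed mean of 33608.5 ± 9277.9 bp (SD, n = 2, exact permutation p = 0.333), with no overlap between the states. The number of peaks did overlap, at 14 and 13 in fed 1 and fed 4, and 14 and 11 in fasted 2 and fasted 5 (exact permutation p = 1.0).

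Merged over libraries, the Hnf4a window held 9 regions, and 4 of them were shared by all 4 lists. The first of these, chr2:163327277-163334852, was covered over 3611 and 3496 bp in fed 1 and fed 4, and 6811 and 7576 bp in fasted 2 and fasted 5. It stood at percentiles 97.2, 79.7, 97.3 and 95.9 of those lists. The next, chr2:163355039-163370636, held the best-scoring fed 1 peak of the locus, 6245 bp wide, 61st from the top of its list at percentile 99.8. In fed 4 the peak of 4350 bp at that place stood only at percentile 54.6, below the middle of the fed 4 peaks of this locus.

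The region chr2:163371799-163388626 had the largest fasted-to-fed ratio of the 4 shared Hnf4a regions. Peaks covered 5460 and 5546 bp in fed 1 and fed 4, and 16532 and 16581 bp in fasted 2 and fasted 5. Its first part held peaks of all 4 libraries, whereas its second part, from position 163382234 on, held fasted peaks alone: 3165 and 2890 bp in fasted 2 and a single peak of 6290 bp in fasted 5, at percentiles 52.9, 65.4 and 55.9. The last region, chr2:163393417-163424842, was the widest at 31426 bp and had the most bases covered in every library: 24057 and 12325 bp in fed 1 and fed 4, and 27729 and 31053 bp in fasted 2 and fasted 5. It held 8 peaks of fed 1 and 7 of fed 4, but 3 of fasted 2 and 2 of fasted 5. The best-scoring peaks of fed 4 (percentile 99.2, chr2:163419744-163422777) and fasted 2 (97.8, chr2:163418504-163423348) overlapped within it. In fasted 5 the peaks chr2:163360462-163370636, chr2:163371799-163382089 and chr2:163393417-163411159 were tied at percentile 99.6 as the best of the locus.

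The other 5 Hnf4a regions were weak. One had peaks of both fasted libraries and neither fed library, chr2:163388738-163391093, covered over 1169 bp in fasted 2 and 2356 bp in fasted 5, at percentiles 12.48 and 13.5. Another, chr2:163337072-163339968, had peaks in all lists but fed 4, at percentiles 41.0 to 46.0. The remaining 3 had a peak in a single fasted library, 750 to 1322 bp wide.

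At Elf3 the window cut through a longer acetylated stretch, so that 2 of its regions ran past a window edge. Whole peaks touching the window covered 33625 and 15611 bp in fed 1 and fed 4, and 45273 and 43444 bp in fasted 2 and fasted 5. Inside the window alone they covered 29283, 12653, 39527 and 36909 bp. Each fasted value exceeded each fed value, and the fed libraries differed from each other more than at Cdx2. The means were 24618 ± 12737.8 bp fed and 44358.5 ± 1293.3 bp fasted (SD, n = 2), a ratio of 1.80 (exact permutation p = 0.333). The difference of 19740.5 bp was 10733.5 bp without fed 4 and 28747.5 bp without fed 1.

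Most of the Elf3 coverage came from a single region, chr1:137141936-137165854. It was one peak of 23703 bp in fasted 2 and one of 23025 bp in fasted 5. Fed 1 had 4 peaks there over 19884 bp, with one of 11719 bp, and fed 4 had 6 peaks over 10432 bp, the widest 4219 bp. Within the fed 4 list the widest of these was also the best-scoring peak of the locus, at percentile 92.4. In fasted 2 the long peak stood at 86.6, and the best-scoring peak was instead the 7233 bp peak at the window's start, chr1:137120449-137127681, at 98.5. That peak was also the best of fed 1 at Elf3, at percentile 94.4 and 3919 bp wide. In fasted 5 the long peak and the peak chr1:137177133-137182057 were tied at percentile 99.6 as the best of the locus.

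A region at the far edge of the Elf3 window separated the fed libraries. At chr1:137177129-137182057 peaks covered 3118 and 0 bp in fed 1 and fed 4, and 4067 and 4925 bp in fasted 2 and fasted 5, at percentiles up to 79.3 in fed 1, 88.3 in fasted 2 and the tied 99.6 in fasted 5. This was the highest-ranked fasted 5 peak of the 4 loci without a fed 4 peak. A pair of narrow regions, 1735 and 1570 bp wide, likewise had peaks in all lists but fed 4. The region chr1:137173466-137174109 had a peak of fasted 2 alone, 644 bp wide, at percentile 17.1. At chr1:137134838-137136852 fed 1 covered 1599 bp and fasted 5 only 1313 bp, and this was the one region with peaks in all 4 lists where a fed library covered more than a fasted one. The number of peaks was 12 and 9 in fed 1 and fed 4, and 8 and 7 in fasted 2 and fasted 5, higher in both fed lists (exact permutation p = 0.333). This direction turned with the score minimum: the fasted-minus-fed difference of -3.0 was 0.5 with peaks of score 100 or more and 3.0 with those of 200 or more. A minimum of 200 kept 640 of the 15504 fed 4 peaks, with 0 at Elf3, and 20009 of the 35917 fasted 5 peaks. The part of this loss in the turn was not tested.

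Klf4 had the fewest covered bases of the 4 loci in every library, and was nearly bare in the fed lists. A single peak was called in each, 1987 bp wide in fed 1 and 1433 bp in fed 4, against 3 peaks covering 6679 bp in fasted 2 and 2 peaks covering 7226 bp in fasted 5. These are 3.61% and 2.61% of the window in the fed and 12.1% and 13.1% in the fasted libraries. In every library Klf4 lay below the median of the 50000 bp bins with peaks of all 4 libraries. Those medians were 5481 and 2378.5 bp in fed 1 and fed 4, and 11414.5 and 11829 bp in fasted 2 and fasted 5. The fasted mean of 6952.5 ± 386.8 bp was 4.07 times the fed mean of 1710 ± 391.7 bp (SD, n = 2, exact permutation p = 0.333), with no overlap between the states. Both fasted libraries also had more peaks than both fed ones here, as in 40% of bins with any peak and 30.3% of bins with peaks of all 4 libraries.

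The fed peaks at Klf4 lay at one place, inside the main fasted peak. The merged region, chr4:55542197-55547524, was covered over 5253 and 4808 bp in fasted 2 and fasted 5. The fed 4 peak lay wholly within the fed 1 peak. The rank of this region differed between the fed libraries, at percentile 27.2 in fed 1 and at 89.1 in fed 4. In the fasted lists it stood at 86.9 and 95.0. A second region, chr4:55525886-55528530, lay apart from it and had a peak of 1426 bp in fasted 2 and 2418 bp in fasted 5 at percentiles 45.1 and 43.1, with no fed peak.

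**Figure D2:**
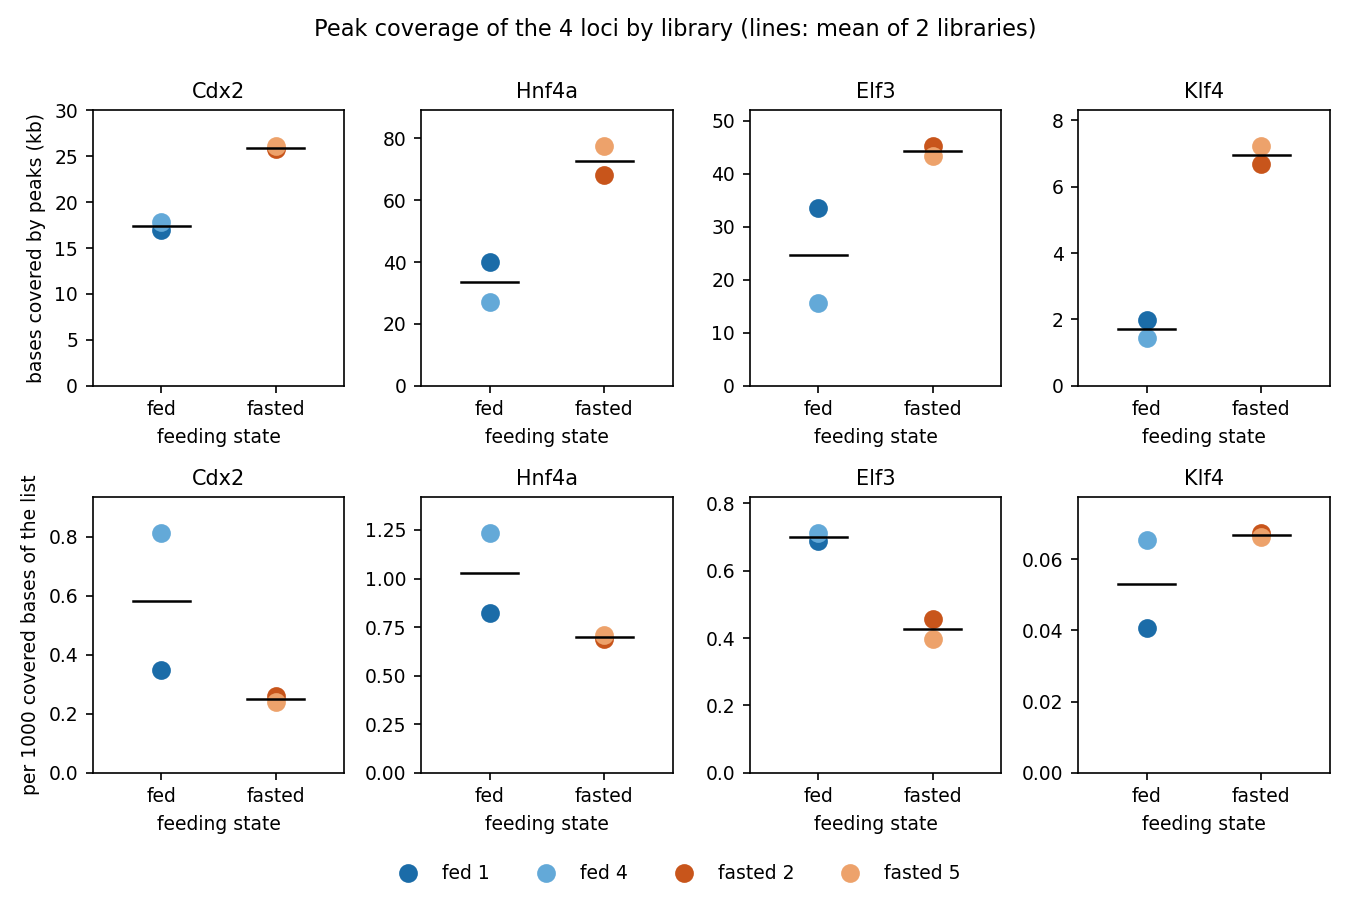
Top row, bases covered by peaks at each locus in kb; bottom row, the same bases per 1000 bases covered by the whole list. Each point is a library, lines are means of 2 libraries, and y axes start at 0 and differ between loci. Covered bases are higher in both fasted libraries at all 4 loci, while the share of the list is higher in both fed libraries at Cdx2, Hnf4a and Elf3.

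Compared with the rest of the series, a higher fasted coverage was common, and the ratio of fasted to fed coverage differed between the loci. The covered length of both fasted lists exceeded that of both fed lists at 4 of 4 loci, beside 79.1% of 14298 bins of 50000 bp that held any peak and 94.5% of the 5660 bins with peaks of all 4 libraries. The reverse order held at none of the loci and in 0.133% of the 14298 bins. Over those 5660 bins the median ratio of fasted to fed coverage was 2.57, with quartiles of 2.01 and 3.47, and over the 4 loci it was 1.98. The ratio of Cdx2 was low among the bins, with 5.02% at or below it. For Elf3 that share was 15.4%, for Hnf4a 31.9% and for Klf4 84.1%. Bins hold 50 kb and the Hnf4a window 115 kb, so these places are a description and no test. The loci and the bins also differed in fed coverage, whose median over these bins was 5481 bp in fed 1 and 2378.5 bp in fed 4. Cdx2, Hnf4a and Elf3 lay above these medians, with 17017 and 17811 bp at Cdx2. Klf4 lay below them, with 1987 and 1433 bp. The part of fed coverage in the ratios was not tested. When each list was reduced to its best-scoring peaks of equal covered length (21.9 Mb), both fasted libraries stayed above both fed libraries at Hnf4a alone, where the difference fell from 39222.5 to 18116 bp. The states then overlapped at the other loci, with differences of -5332 bp at Cdx2, 6741.5 bp at Elf3 and 1687.5 bp at Klf4.

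As a share of all bases covered by the list, 3 of the loci were higher in the fed libraries. Of every 1000 covered bases, Cdx2 made up 0.349 and 0.813 in fed 1 and fed 4, and 0.260 and 0.239 in fasted 2 and fasted 5. Hnf4a made up 0.824, 1.23, 0.687 and 0.711, and Elf3 0.690, 0.712, 0.457 and 0.398, in the same order of libraries. Both fed libraries lay above both fasted libraries at these 3 loci (exact permutation p = 0.333 at each), as they did in 14.2% of all bins and 35.2% of bins with peaks of all 4 libraries. At Cdx2 and Hnf4a the size of the difference depended on fed 4, the shortest list. The Cdx2 difference of -0.331 was -0.0995 without fed 4 and -0.563 without fed 1, and that of Hnf4a, -0.330, was -0.125 and -0.536. The Elf3 difference of -0.274 lay between -0.303 and -0.244 whichever library was left out. The direction turned at equal covered length, to 0.827 at Hnf4a and 0.308 at Elf3, and at Elf3 also with peaks of score 200 or more, to 0.221. At equal covered length every list covers 21.9 Mb, so the share restates the difference in covered bases and is no separate check.

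Klf4 went the other way in this share, though by little. Its values were 0.0408 and 0.0654 in fed 1 and fed 4, and 0.0673 and 0.0662 in fasted 2 and fasted 5, and the fasted libraries lay just above fed 4. Both fasted libraries were higher at 36.6% of all bins and 17.3% of those with peaks of all 4 libraries. The difference of 0.0137 fell to 0.0014 without fed 1 and was 0.026 without fed 4. It turned to -0.0068 with peaks of score 100 or more.

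**Figure D3:**
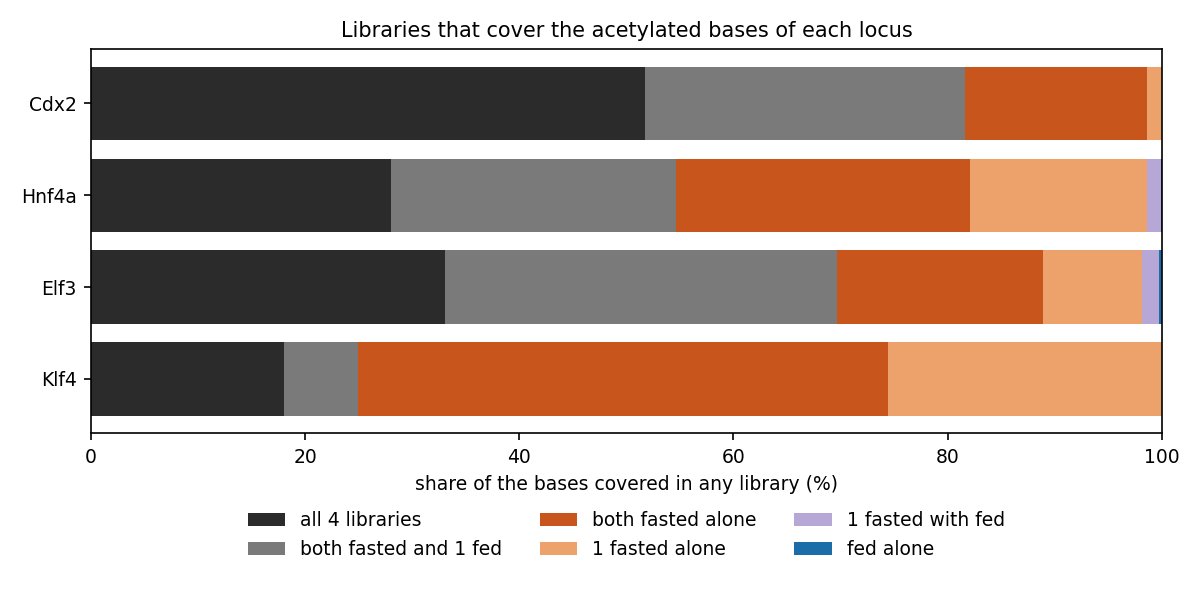
Bases covered in any library at each locus, split by which libraries cover them, in percent. Black marks bases covered in all 4 libraries, from 51.8% at Cdx2 down to 18.0% at Klf4, and the blue share covered by fed libraries alone is at most 0.223%.

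Base by base, the fed peaks were nested in the fasted ones. At Cdx2 and Klf4 every fed base was covered in both fasted libraries. At Hnf4a this held for 97.2% of fed 1 and all fed 4 bases, and at Elf3 for 97.4% and 99.6%. Bases covered by fed libraries alone came to 83 bp at Hnf4a and 105 bp at Elf3. In the other direction, either fed library covered 82.7% of fasted 2 and 81.6% of fasted 5 bases at Cdx2, 74.0% and 75.4% at Elf3, 64.6% and 57.3% at Hnf4a, and 29.8% and 27.5% at Klf4. No such shares are at hand for the whole lists, where fasted peaks covered 2.95 times the fed bases on average. The nesting is therefore not shown to be particular to these loci. The part of the longer fasted lists in this nesting was not tested.

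The share common to all libraries ordered the loci. Bases covered in all 4 libraries were 51.8% of those covered in any at Cdx2, 33.1% at Elf3, 28.0% at Hnf4a and 18.0% at Klf4. Bases covered by both fasted libraries and no fed library were 17.0%, 19.3%, 27.5% and 49.5% in the same order. The fasted libraries matched each other closely: their Jaccard index, the bases covered in both divided by those covered in either, was 0.987 at Cdx2, 0.891 at Elf3, 0.822 at Hnf4a and 0.744 at Klf4. The index of the fed pair was 0.634, 0.464, 0.499 and 0.721. These shares and indices also lack a value for the whole lists beside them.

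Counted as regions, 11 of the 21 had a peak in all 4 libraries, 2 at Cdx2, 4 at Hnf4a, 4 at Elf3 and 1 at Klf4, beside 16.1% of all regions of the series. These shared regions were 2015 to 31426 bp wide. A wide region has more room for peaks of every list, and no allowance was made for width or for the choice of the loci. Regions with peaks of both fasted and neither fed library numbered 2, beside 19.3% of all regions, and none had fed peaks alone in both fed libraries, beside 0.297%. A further 4 regions had a peak in 1 library only, beside 41.5%. In 10 of the 11 shared regions both fasted libraries covered more bases than both fed libraries, beside 91.3% of shared regions in the series. The count of 2 was 6 without fed 1, 6 without fasted 2 and 9 without fasted 5.

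Fasted peaks without a fed peak numbered 9 of 27 in fasted 2 (33.3%) and 6 of 22 in fasted 5 (27.3%), beside 48.2% and 51.1% of the whole lists. Their percentiles ran from 11.4 to 65.4 with a median of 17.1 in fasted 2, and from 4.19 to 64.2 with a median of 39.4 in fasted 5. The 5 peaks of fasted 2 and 4 of fasted 5 that overlapped peaks of 1 fed library had medians of 41.0 and 35.5. The latter was below that of the unmatched peaks of fasted 5. These few peaks ranged widely, from 26.4 to 88.3 and from 17.9 to 99.6. Peaks that overlapped peaks of both fed libraries had medians of 93.5 and 95.5, and their lowest values were 56.2 and 16.1. Medians by overlap are not at hand for the whole lists, so this order is not shown to be particular to the loci. The unmatched peaks were at most 3165 bp wide in fasted 2 and 6290 bp in fasted 5. Of these 15 peaks, 11 lay at Hnf4a, 3 at Klf4 and 1 at Elf3.

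**Figure D4:**
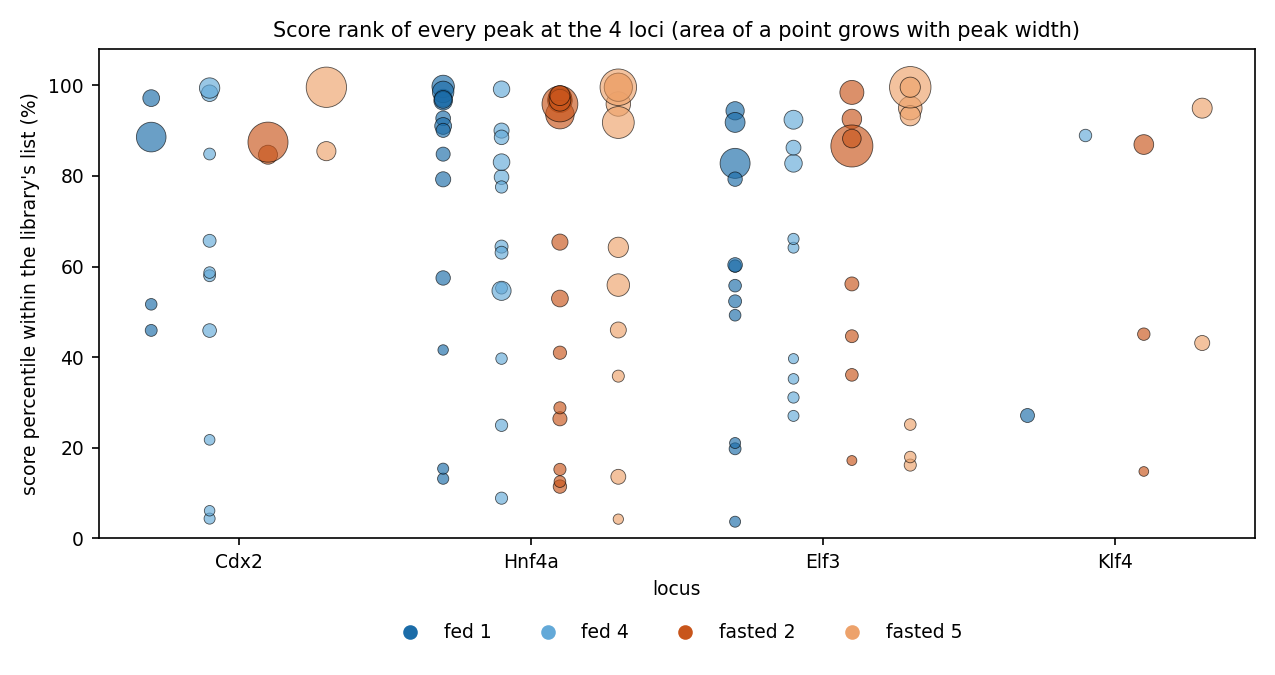
Score percentile of every peak within its own list, by locus and library; the area of a point grows with the width of the peak. Wide peaks sit near the top in the fasted libraries, and the best peak of Klf4 ranges from percentile 27.2 in fed 1 to 95.0 in fasted 5.

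Within each list, the best peak of a locus stood at percentile 87.5 or higher at Cdx2, Hnf4a and Elf3. At Hnf4a it stood at percentile 99.8 and 99.2 in fed 1 and fed 4, and 97.8 and 99.6 in fasted 2 and fasted 5. At Elf3 the values were 94.4, 92.4, 98.5 and 99.6, and at Cdx2 97.2, 99.4, 87.5 and 99.6. The best Elf3 peaks of fed 1 and fasted 2 reached only 0.589 and 2.68 kb into the window. The best peaks of these libraries wholly inside it stood at 91.8 and 92.6. Klf4 was the lowest in each list, at 27.2, 89.1, 86.9 and 95.0. In fasted 2 it was close to Cdx2, and in fasted 5 to the lower edge of the tie, at 96.0. The best of many peaks tends to rank higher than a lone peak, and no allowance was made for this. No best-peak percentiles are at hand for other windows of the series, so these ranks are not shown to be particular to the loci. Hnf4a had 11 to 14 peaks per library, and Klf4 had 1 in each fed list. Peaks at or above the 90th percentile at Hnf4a numbered 8 and 2 in fed 1 and fed 4, and 6 and 5 in fasted 2 and fasted 5, the most of the 4 loci except in fed 4, where Cdx2 also had 2. At Hnf4a and Elf3 weak peaks lay beside strong ones in every library: the lowest percentile in a library ranged from 4.19 to 13.1 at Hnf4a and was 3.62 or more at Elf3. At Cdx2 the fed lists had weak peaks too, whereas the lowest fasted values were 84.7 and 85.5.

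Neighbouring peaks of a library were joined into domains across gaps of up to 12500 bp, as long clusters of H3K27ac are often described, and domains were ranked by the bases their peaks cover. The Elf3 window lay in one of the largest domains of 3 lists: with 61.9 kb covered it ranked 18 of 8922 in fed 1, with 89.5 kb 40 of 11949 in fasted 2 and with 88.8 kb 26 of 14140 in fasted 5. In these libraries the domain began 54.8 to 62.1 kb before the window and ended 1.195 to 3.66 kb after it. In fed 4 the domain reached only 2.96 kb before the window, covered 15.6 kb and ranked 153 of 6645. With gaps of up to 5000 bp the fed 1 domain began only 3.33 kb before the window and covered 30.5 kb, while those of fasted 2 and fasted 5 still began 62.1 and 59.7 kb before it. The ranks were then 60 and 359 in fed 1 and fed 4, and 17 and 6 in fasted 2 and fasted 5. Acetylated sequence beyond the window was not assigned to any gene.

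At Hnf4a the largest domain took up different parts of the window. In the fed lists the window was split into 3 domains, the largest at its far end, with 29.5 kb covered in fed 1 (rank 198) and 15.9 kb in fed 4 (rank 143). In the fasted lists there were 2, and the larger began 45.0 to 46.2 kb into the window and ran 13.0 to 18.9 kb past its end, with 71.3 kb covered in fasted 2 (rank 93) and 79.8 kb in fasted 5 (rank 49). Cdx2 formed a single domain in every list, of 23.5 to 27.2 kb, at rank 585 and 112 in fed 1 and fed 4, and 854 and 849 in fasted 2 and fasted 5. Klf4 lay in small domains of 1.43 to 5.25 kb covered, at percentiles from 39.3 to 61.5 of all domains. Lists of unlike length give unlike numbers of domains, so these ranks place a locus within its own list and show no change.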

How the data were processed

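H3K27ac ChIP-seq of mouse small intestinal crypts was used from 2 fed and 2 fasted libraries; the 4 inputs were not analysed on their own. The deposited files hold the peaks of 1 library each (not pooled), with a score per peak that is the authors' own value; neither its scale nor the caller's settings is given in the sources used here. The submitters' processing notes name build mm9 and the tools deepTools 1.5.11, SAMtools 1.9, Bowtie 1.1.2 and FastQC; the file names point to MACS without a shifting model. No read counts are in these files, so depth is unknown and the number of libraries limits the precision.

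Printed positions count from 1, so each printed start is the deposited start plus 1, and ends are as deposited. Peaks touching a window by 1 bp or more were counted, their covered bases summed, and libraries compared by two-sided exact permutation tests (Python 3.11.15, NumPy 2.4.6); interval functions were tested on simulated data. Described regions followed a fixed rule: in each locus, the one with most bases covered in all 4 libraries, the best-scoring peak of each library, and those of 1 feeding state alone; others were chosen after their values were seen. The members, windows and rules were chosen with earlier results of these data known. Alternatives kept scores of at least 100 or 200, the 15504 or the 21.9 Mb of best-scoring peaks of each library, or bases inside the window, and tried windows extended by 25000 bp, other gaps, and leaving out each library. No p-value can pass the 0.05 threshold. The units of these tests are pools of animals. With 2 against 2 libraries, any groups that do not overlap give p = 0.333 in the exact permutation test, whatever the spread between pools.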

Additional observations from a re-analysis of the deposited data

How the results depend on the processing

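No paired analysis was possible because, in the labels, the fed (1, 4) and fasted (2, 5) libraries share no replicate number. The file names share the numbers 10 and 11, whose meaning is not stated, so differences within them are given as values with no test. Of 194 alternatives run, 166 kept a direction, stayed within 1.5 times a count or stayed within the spread of replicates, 18 moved and 10 reversed; no p went below 0.333, so none could gain or end a call. Where a value changed, the cause was not tested.

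The higher mean fasted coverage held at each locus under each alternative run, except Cdx2 at equal covered length (-5332 bp), where fasted 2 kept no Cdx2 peak. At that setting the states also overlapped at Elf3 (6741.5 bp, exact permutation p = 1.0) and Klf4 (1687.5 bp, p = 1.0), and the Hnf4a difference was 18116 bp; only the 2834 and 2615 best-scoring peaks of fasted 2 and fasted 5 remain there. Left-out libraries gave fasted-minus-fed differences of 8123 to 8917 bp at Cdx2, 32662 to 45783 bp at Hnf4a, 10733.5 to 28747.5 bp at Elf3 and 4965.5 to 5519.5 bp at Klf4. Within the number 10 that the file names of fed 1 and fasted 2 carry, the differences were 8741, 27943, 11648 and 4692 bp, and within 11 (fed 4, fasted 5) 8299, 50502, 27833 and 5793 bp.

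The difference in peak number kept its direction in 39 of 48 alternatives. At a score of 100 or more it reversed to 1.0 at Hnf4a and 0.5 at Elf3, and at 200 or more to 3.0 at both, with 0 at Cdx2. These minima kept 4126 and 640 peaks of the whole fed 4 list, and 26191 and 20009 of fasted 5. At Hnf4a the difference in peak number was 0 with the wider window and within number 10. It was -2.5 to 0.5 over left-out libraries, the last without fasted 5. At Klf4 it was 0 at equal covered length. The share of the list reversed at equal covered length to 0.827 per 1000 bases at Hnf4a and 0.308 at Elf3, which restate the differences in covered bases at that setting. It also reversed at a score of 200 or more to 0.221 at Elf3, and at 100 or more to -0.0068 at Klf4.

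Counts of regions stayed within 1.5 times in 8 of 18 alternatives. Regions with a peak in all 4 libraries numbered 11, but 6 at a score of 100 or more, 2 at 200 or more and 5 at equal covered length. Regions of fasted peaks alone numbered 2, but 1 when merged across 500 bp, 4 at a score of 200 or more, 0 at equal peak number and at equal covered length, and 2 to 9 over left-out libraries.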
